A study of Mus musculus with 186 samples.

Results

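Expression of 10 genes of the phosphatase network regulated by protein kinase A (PKA) was followed across 6 brain regions of Akap11 mutant mice. The genes were chosen by name from the 28338 gene symbols of the count table, not by their values, but with earlier results of these data known. They are Ppp1r1b, which encodes DARPP-32, Ppp1r1a, Arpp19, Arpp21, Ptpn5, which encodes STEP, Ppp1ca, Ppp1cb, Ppp1cc, Ppp3ca and Ppp3r1. All 10 were detected in each of the 186 libraries, and the lowest expected count of any of them in any library was 299.

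PKA and the serine/threonine phosphatases oppose each other on shared substrates. In striatal projection neurons, dopamine acting through D1 receptors raises cAMP and activates PKA, which phosphorylates DARPP-32 and turns it into an inhibitor of protein phosphatase 1 (PP1), while calcium-activated calcineurin removes that phosphate. Inhibitor-1 works in the same way in other cells, and PKA also phosphorylates STEP, which lowers the affinity of this tyrosine phosphatase for its substrates. Akap11 encodes an A-kinase anchoring protein that tethers PKA. These events are changes of protein phosphorylation, and RNA levels do not measure them.

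Bulk RNA was sequenced at 4 and 12 weeks of age from striatum (STR), hippocampus (HP), substantia nigra (SN), thalamus (TH), and both the prefrontal (PFC) and the somatosensory cortex (SSC). The mice were WT (wild type), HET (Akap11 +/-) or KO (Akap11 -/-), and the labels name neither another allele nor the kind of mutation. The 36 groups held 5 libraries each in 30 groups and 6 in the other 6, with totals of 20.8 to 73.3 M expected counts. The labels do not say whether libraries came from separate animals, so p-values measure the spread between these libraries. Sample numbers recur across regions within a genotype and age, and the main fits across regions treated such libraries as independent. At 4 weeks, deviations from the group mean correlated over 0.1 in 31 of 76 same-numbered WT pairs of regions. At 12 weeks 49 of 75 did. Levels are CPM, counts divided by the library total on a common scale, with TMM factors that balance the libraries' composition.

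The sequence around the PKA site shows why DARPP-32 and inhibitor-1 are treated as a pair. Both are inhibitors of PP1 that are switched on by phosphorylation of a threonine. The coding sequences below come from the GENCODE M21 transcripts on GRCm38, read 5′ to 3′, with the threonine codon in capitals, which is codon 34 of Ppp1r1b and codon 35 of Ppp1r1a.
Ppp1r1b: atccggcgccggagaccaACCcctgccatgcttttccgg
Ppp1r1a: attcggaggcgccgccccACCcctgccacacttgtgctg
Of the 39 bases, 27 were identical, and 10 of the 13 codons encoded the same residue. Of the 3 annotated coding transcripts of Ppp1r1b, 2 are shorter, at 158 codons against 194, and do not hold this stretch. Counts per gene cannot separate these transcripts.

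Promoter sequence was searched because PKA also acts on transcription through the cAMP response element. RefSeq windows (GRCm38.p6) held 6 of the 10 genes, Arpp19, Arpp21, Ptpn5, Ppp1cb, Ppp1cc and Ppp3r1, with 16 start sites. The full element, TGACGTCA, was searched on both strands of the 250 bases before each start. It was in 0 of the 16 windows and in 1.55% of all 32851 windows of that length. The shorter letters TGACG, which the full element contains, were in 3 of the 16 windows and in 17.8% of all windows. These were 2 of the start sites of Arpp21 and the start site of Ppp3r1. They are shown with the matched letters in capitals, which for Ppp3r1 lie on the opposite strand.
Arpp21 (chr9:112185956-112186010, minus strand): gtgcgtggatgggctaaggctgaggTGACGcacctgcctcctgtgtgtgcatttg
Arpp21 (chr9:112217284-112217338, minus strand): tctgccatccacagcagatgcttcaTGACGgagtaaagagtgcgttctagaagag
Ppp3r1 (chr11:17159089-17159143, plus strand): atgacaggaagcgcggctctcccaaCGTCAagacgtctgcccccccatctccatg
A match of letters is a description of these windows and not a measured site.

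Some 4-week libraries stood apart in their markers. In 4-week striatum, the summed level of 8 cortical and hippocampal excitatory neuron markers was 1531 CPM in KO 51, 2017 in KO 161, 1066 in KO 163 and 1190 in WT 92. It was 174 to 258 CPM in the other WT and KO libraries and at most 332 in HET. The vesicular glutamate transporter Slc17a7, the leading cortical marker, reached 674 CPM in WT and 1190 in KO, against at most 5.79 CPM in the WT and KO libraries of 12-week striatum. The summed level of 10 striatal projection neuron markers was 5127 to 7459 CPM in KO 51, KO 161 and KO 163, and 8563 to 15699 CPM in the other 4-week striatal libraries. Separately, 16 libraries at 4 weeks held few whole-number counts and had TMM factors of 0.775 to 0.941, against 0.919 to 1.13 in all others. In striatum these were WT 92, WT 914 and KO 12, and they were the 3 highest of the 15 libraries for 8 of the 10 genes. All 12-week striatal libraries had cortical marker sums of 179 to 226 CPM. The lowest striatal library, at 5127 CPM of striatal projection neuron markers, was above every library of another region, of which the highest was an SSC library at 1616 CPM. Some WT libraries at 4 weeks were low in markers of their own region, down to 2676 CPM of thalamic neuron markers in TH and 182 CPM of dopamine neuron markers in SN.

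Akap11, the targeted gene, was lower in KO than in WT in all 12 sets of region and age, with log2 fold changes of -4.30 to -3.65. In HET it was called lower in 10 of 12, the exceptions being HP and SN at 4 weeks. The SN library labelled WT 92 at 4 weeks had an Akap11 level of 43.6 CPM, where the other WT libraries had 195 to 241 CPM, so its label is in doubt.

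In WT brain, all 10 genes were higher in striatum than in the mean of the other 5 regions, at both ages. This comparison asked how far the network is a striatal one. The log2 difference ran from 0.52 for Ppp1cb to 6.38 for Ppp1r1b at 4 weeks, and from 0.23 to 6.08 for the same genes at 12 weeks. A gene was called at a Benjamini-Hochberg adjusted p under 0.05 over all genes tested, and by this rule 52.9% of all genes were called in either direction at 4 weeks and 67.3% at 12 weeks. The median log2 difference of the 10 genes was 1.85 at 4 weeks and 1.83 at 12 weeks, against -0.0092 and -0.033 over all genes tested. Without the 4-week WT libraries that stood apart (1 of striatum, 3 of TH and 2 of SN), all 10 genes were again called higher at 4 weeks, from 0.48 for Ppp1cb to 6.44 for Ppp1r1b, with a median of 1.90. Bulk RNA cannot tell a larger share of expressing cells from more RNA per cell.

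**Figure D1:**
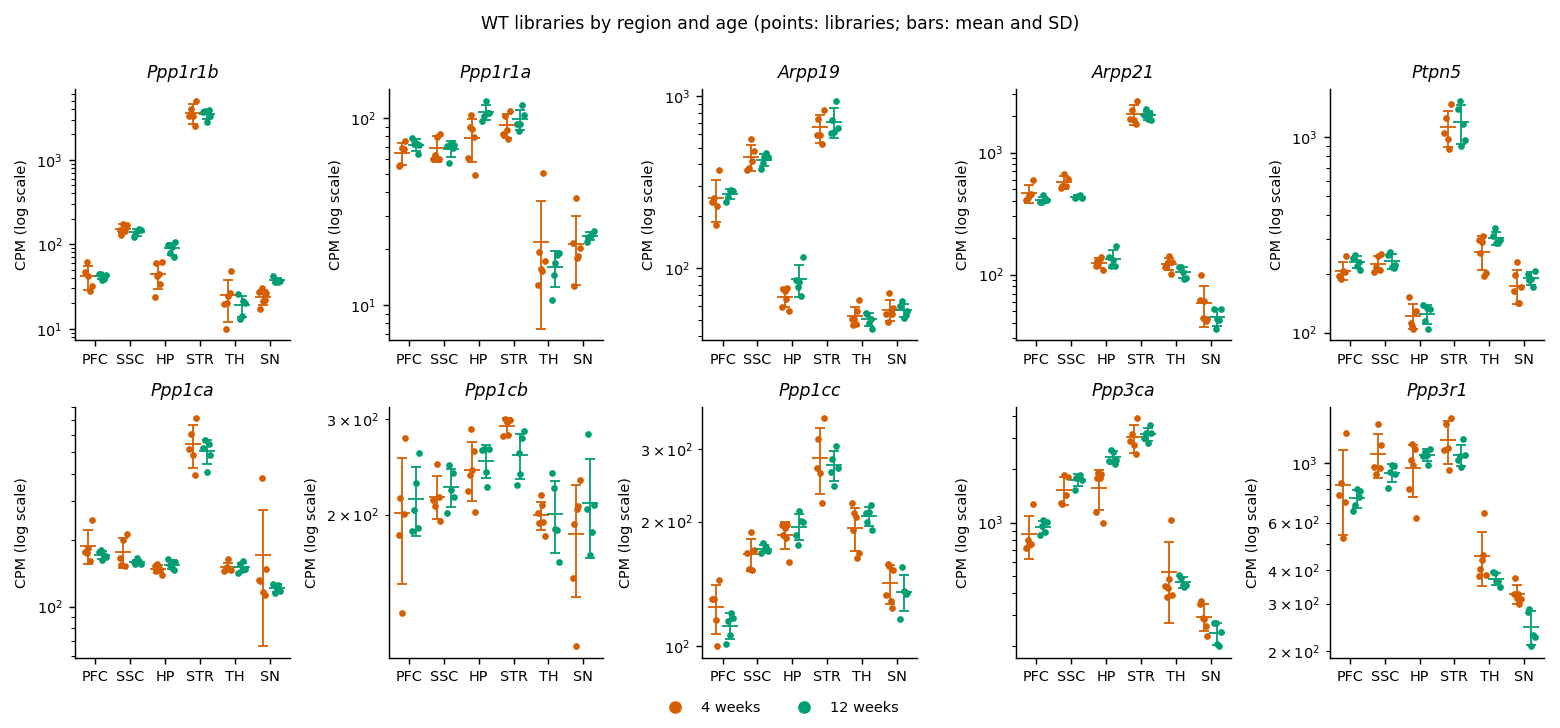
Level of each of the 10 genes in WT libraries of 6 regions at 4 and 12 weeks (CPM, log scale, with the range of the axis set per gene). Points are libraries and bars are the mean and SD. Ppp1r1b sits at 2520 to 5036 CPM in striatum and at most 175 CPM in every other WT library, while the regions overlap for Ppp1cb.

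Ppp1r1b (chr11:98348404-98357796, plus strand) had the largest regional difference of the 10. Its levels in the 5 WT striatal libraries at 12 weeks were 3641, 3768, 2819, 3931 and 3300 CPM. The mean there was 3492 ± 442 CPM (SD, n = 5), and the next region was SSC with 139 ± 12.7 CPM (SD, n = 5). HP followed with 89.9 ± 14.4, PFC with 41.8 ± 3.23, SN with 37.5 ± 2.98 and TH with 19.0 ± 5.27 CPM (SD, n = 5 each). PFC and SN were the only neighbours in this order whose libraries overlapped at 12 weeks. Against the mean of the other regions the log2 difference was 6.38 ± 0.18 (SE, adjusted p = 3.97e-23) at 4 weeks and 6.08 ± 0.08 (SE, adjusted p = 8.59e-30) at 12 weeks.

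Ppp1r1a (chr15:103530279-103538003, minus strand), which encodes inhibitor-1, was spread more evenly. Its WT levels at 12 weeks were 107 ± 10.1 CPM in HP and 98.4 ± 12.2 in striatum (SD, n = 5 each), and these overlapped. PFC held 72.0 ± 5.03, SSC 68.6 ± 6.43, SN 23.3 ± 1.13 and TH 15.9 ± 3.42 CPM (SD, n = 5 each). At 4 weeks striatum was first with 91.3 ± 13.4 CPM (SD, n = 5) and its libraries overlapped with those of HP at 78.3 ± 20.0 CPM (SD, n = 6). The striatal excess was 1.09 ± 0.20 on the log2 scale (SE, adjusted p = 2.86e-05) at 4 weeks and 1.11 ± 0.07 (SE, adjusted p = 7.92e-14) at 12 weeks. In WT striatum, Ppp1r1b reached 1745 CPM per kilobase of its longest annotated transcript at 12 weeks, and Ppp1r1a 75.4 CPM per kilobase.

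Arpp19 and Arpp21 encode small cAMP-regulated phosphoproteins that are PKA substrates. Arpp19 belongs to the endosulfine family, which includes inhibitors of PP2A, and Arpp21 encodes a regulator of calmodulin signalling. Arpp21 (chr9:112065091-112235938, minus strand) stood at 2071 ± 383 CPM in 4-week and 2020 ± 180 CPM in 12-week WT striatum (SD, n = 5 each). No other WT region overlapped with striatum, and SSC came next with 571 ± 68.8 and 434 ± 13.0 CPM (SD, n = 5 each). Arpp19 (chr9:75037614-75060313, plus strand) was at 655 ± 123 CPM in 4-week and 708 ± 138 in 12-week striatum (SD, n = 5 each). SSC libraries of Arpp19 overlapped with striatum at 4 weeks, where they averaged 443 ± 77.5 CPM (SD, n = 5), and not at 12 weeks. HP, TH and SN averaged between 50.5 and 86.2 CPM of Arpp19. The striatal excess at 12 weeks was 3.63 ± 0.06 for Arpp21 and 2.52 ± 0.07 for Arpp19 on the log2 scale (SE), with adjusted p of 8.95e-28 and 1.65e-22.

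Ptpn5 (chr7:47077795-47133684, minus strand), the striatum-enriched tyrosine phosphatase, was at 1127 ± 240 CPM in 4-week and 1197 ± 273 CPM in 12-week WT striatum (SD, n = 5 each). In contrast to Ppp1r1b, its second region was TH, with 260 ± 51.1 CPM (SD, n = 6) at 4 weeks, overlapping with SSC, and 305 ± 24.1 CPM (SD, n = 5) at 12 weeks. HP was lowest with 122 ± 17.3 (SD, n = 6) and 125 ± 14.4 CPM (SD, n = 5). At the later age TH did not overlap with SSC at 232 ± 20.6 CPM (SD, n = 5), and SSC overlapped with PFC. The log2 difference of striatum from the mean of the others was 2.58 ± 0.10 at 4 weeks and 2.53 ± 0.07 at 12 weeks (SE), with adjusted p of 7.86e-20 and 4.62e-23.

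The PP1 catalytic subunits differed in how striatal they were. Ppp1ca (chr19:4192065-4195420, plus strand) was at 505 ± 63.0 CPM in 12-week WT striatum and at 121 to 172 CPM on average in the other regions, none of which overlapped with striatum. Ppp1cc (chr5:122158278-122175273, plus strand) was at 273 ± 22.6 CPM in striatum, with TH next at 206 ± 10.9 CPM (SD, n = 5 each), and did not overlap there. Ppp1cb (chr5:32458843-32517433, plus strand) was nearly level across the brain, from 200 to 257 CPM on average at 12 weeks, and each neighbour in the order overlapped with the next. The log2 striatal excess at 12 weeks was 1.75 ± 0.04 for Ppp1ca, 0.77 ± 0.05 for Ppp1cc and 0.23 ± 0.09 for Ppp1cb (SE). The adjusted p for Ppp1cb was 0.0198, and it was 0.0684 without STR WT 4 and 0.0752 without STR WT 5. Per kilobase of longest transcript, 12-week WT striatum held 343 CPM of Ppp1ca, 115 of Ppp1cc and 43.2 of Ppp1cb. With the mean transcript length in place of the longest, Ppp1cc was at 173 and Ppp1cb at 81.1 CPM per kilobase, and the order was the same.

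The calcineurin genes encode the catalytic A subunit alpha (Ppp3ca) and the calcium-binding regulatory B subunit (Ppp3r1). Ppp3ca (chr3:136670124-136937727, plus strand) was at 3167 ± 280 CPM in striatum, 2344 ± 184 in HP, 1749 ± 135 in SSC and 949 ± 80.0 in PFC at 12 weeks (SD, n = 5 each). TH followed with 462 ± 32.2 and SN with 238 ± 34.5 CPM (SD, n = 5 each), and no neighbours in this order overlapped. Ppp3r1 (chr11:17159263-17200375, plus strand) was at 1069 ± 94.4 CPM in striatum and 1066 ± 54.4 CPM in HP at 12 weeks (SD, n = 5 each), so striatum was not separate from HP. Both were lowest in SN, where Ppp3r1 averaged 246 ± 35.1 CPM (SD, n = 5). The log2 striatal excess at 12 weeks was 1.91 ± 0.06 for Ppp3ca and 0.88 ± 0.06 for Ppp3r1 (SE), with adjusted p of 4.11e-22 and 2.98e-14.

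Genes with the most similar pattern were ranked for the 3 most striatal genes by Pearson correlation of mean log2(CPM + 1) over the 12 WT groups of region and age. The ranking covered 14073 genes and is a description, since the 2 ages of a region share its tissue. For Ppp1r1b the 5 closest were Cbr3, Ivns1abp, Neto2, Rasd2 and Elmod1, with r from 0.980 to 0.974. For Ptpn5 they were Tbc1d8, Atl2, Rarb, Acvrl1 and Cipc, with r from 0.981 to 0.963. For Arpp21 they were Spry2, Lrrk2, Car11, Plcl2 and Dctpp1, with r from 0.986 to 0.976. No gene was shared between these sets of 5. Cbr3, a carbonyl reductase gene, was at 34.5 ± 6.97 CPM in 12-week WT striatum and at 5.63 ± 0.63 CPM in HP (SD, n = 5 each), its next region.

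Loss of Akap11 was then compared with WT in striatum, the region in which the series title places broad molecular disturbances. At 4 weeks, 1 of the 10 genes, Ppp1r1a, fell in KO, and at 12 weeks 2 fell, Ppp3ca and Ppp3r1. No gene of the 10 rose at either age. The share of all genes called was 3.35% at 4 weeks and 4.42% at 12 weeks. The median log2 fold change of the 10 genes was -0.23 at 4 weeks and -0.12 at 12 weeks, against -0.0015 and 0.0053 over all genes tested. Without the 4 striatal libraries that stood apart the 4-week median was 0.22, with 9 of the 10 genes above 0 and Ppp1r1a still called lower.

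**Figure D2:**
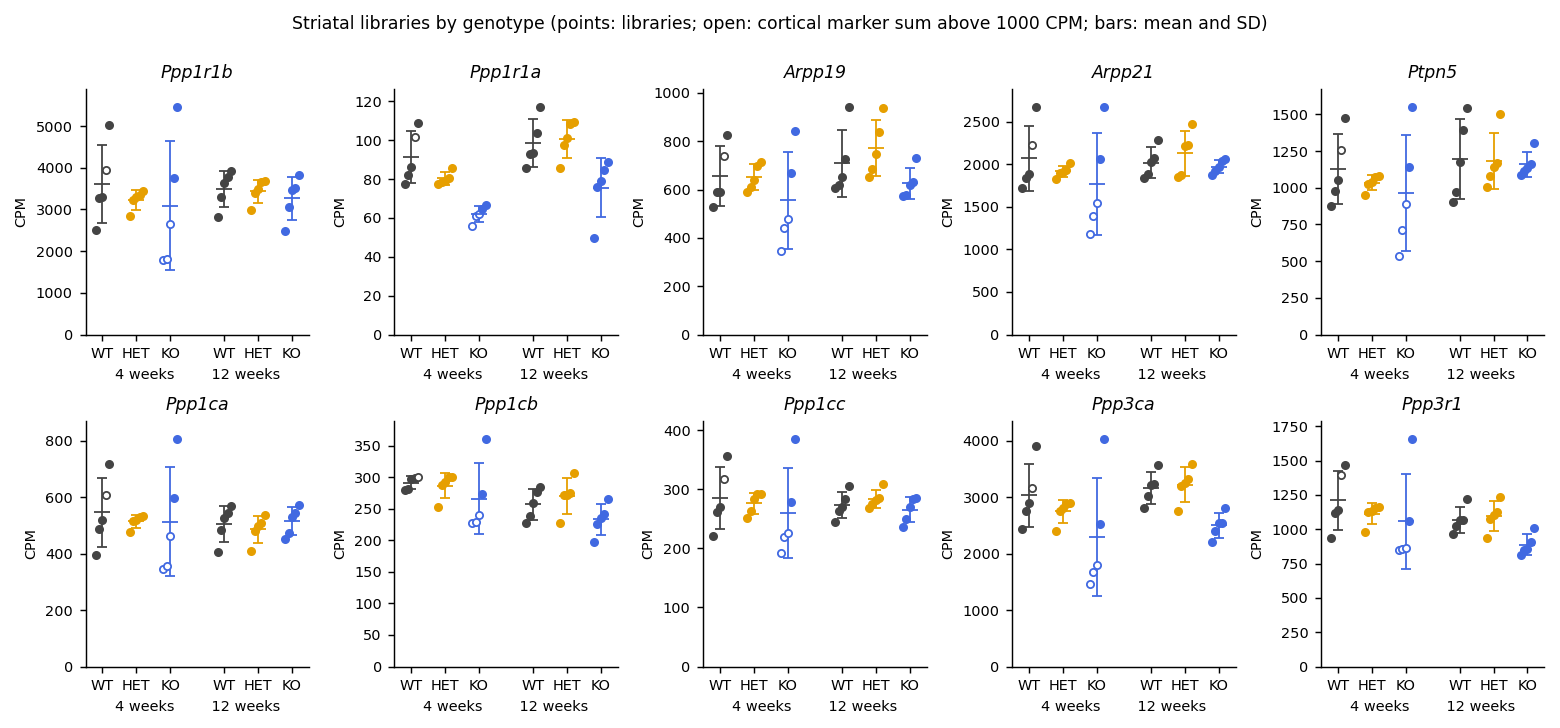
Level of each gene (CPM) in striatal libraries of WT, HET and KO at 4 and 12 weeks. Points are libraries, open points the libraries KO 51, KO 161, KO 163 and WT 92 at 4 weeks, and bars the mean and SD. For Ppp1r1a at 4 weeks all KO libraries (55.7 to 66.8 CPM) lie below all WT libraries (77.6 to 109 CPM).

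Ppp1r1a, inhibitor-1, was at 66.8, 61.9, 55.7, 61.2 and 64.3 CPM in the 4-week KO libraries 12, 51, 161, 163 and 932. It was at 82.2, 102, 86.0, 77.6 and 109 CPM in the WT libraries 42, 92, 142, 913 and 914. The groups did not overlap, and the HET libraries lay between them at 77.7 to 85.9 CPM, overlapping with WT. The log2 fold change of KO was -0.56 ± 0.08 (SE, adjusted p = 0.00113), which left 67.8% of the WT level. Without the 4 libraries with high cortical markers it was -0.45 ± 0.11 (SE, adjusted p = 0.0440), with KO 12 and KO 932 as the only KO libraries left. It was -0.44 (adjusted p = 0.00181) without the libraries with few whole-number counts. It was -0.50 (adjusted p = 0.000225) with the cortical marker score and that library subset both in the fit.

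At 12 weeks Ppp1r1a was at 88.6, 49.8, 79.2, 84.7 and 76.1 CPM in KO 1 to 5 and at 92.7, 85.5, 93.2, 117 and 104 CPM in WT 1 to 5. KO 2 was far below the rest, and KO 1 was above the lowest WT library. The log2 fold change was -0.38 ± 0.12 (SE) and did not pass (adjusted p = 0.101). DESeq2 gave -0.39 with an adjusted p of 0.0342. EdgeR with the replicate number as a block gave -0.40 (adjusted p = 0.0108). The labels do not say whether that number pairs the libraries. The 12-week value was not shown to be smaller than the 4-week one, since the difference between the ages was not called.

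Ppp1r1b, DARPP-32, did not pass at either age. In 4-week striatum it was at 5453, 1815, 1786, 2660 and 3759 CPM in KO 12, 51, 161, 163 and 932, and at 3272, 3950, 3288, 2520 and 5036 CPM in WT 42, 92, 142, 913 and 914. The 3 KO libraries with high cortical markers held 3 of the 4 lowest WT or KO values, and KO 12 and WT 914, both of the subset with few whole-number counts, held the highest. The log2 fold change was -0.23 ± 0.27 (SE, adjusted p = 0.727), and it turned to 0.37 (adjusted p = 0.488) without the 4 libraries that stood apart. That fit kept KO 12 and KO 932 alone as KO libraries. At 12 weeks, where no striatal library stood apart in the cortical marker sum, the KO libraries held 3524, 2473, 3479, 3817 and 3050 CPM. The change from WT was -0.10 ± 0.10 (SE, adjusted p = 0.738), with a 95% interval of -0.30 to 0.10. The groups overlapped at both ages.

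The same turn of sign was found for 8 other genes at 4 weeks. Arpp19, Arpp21, Ptpn5, Ppp1ca, Ppp1cb, Ppp1cc, Ppp3ca and Ppp3r1 had log2 fold changes of -0.41 to -0.09 with all libraries, none of which passed. Without KO 51, KO 161, KO 163 and WT 92 they were at 0.24, 0.20, 0.28, 0.39, 0.12, 0.24, 0.11 and 0.21, and again none passed. With the cortical marker score as a covariate, all of the 8 but Ppp1ca stayed below 0. With the subset of few whole-number counts also in the fit, Ptpn5 (0.031), Ppp1ca and Ppp1cc were above 0. The rest of the 8, such as Ppp1cb (-0.010), stayed below 0, and none passed in either fit. The part of cortical tissue in these values was not tested beyond these fits. Ppp3ca came closest of the 8 with all libraries, at -0.41 ± 0.23 (SE, adjusted p = 0.381). It was called lower without KO 12 (-0.71, adjusted p = 0.0200) and without the libraries with few whole-number counts (-0.54, adjusted p = 0.0470), and Ppp1cb was called lower without KO 12 (-0.27, adjusted p = 0.0311). Those fits kept the 3 KO libraries with high cortical markers.

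**Figure D3:**
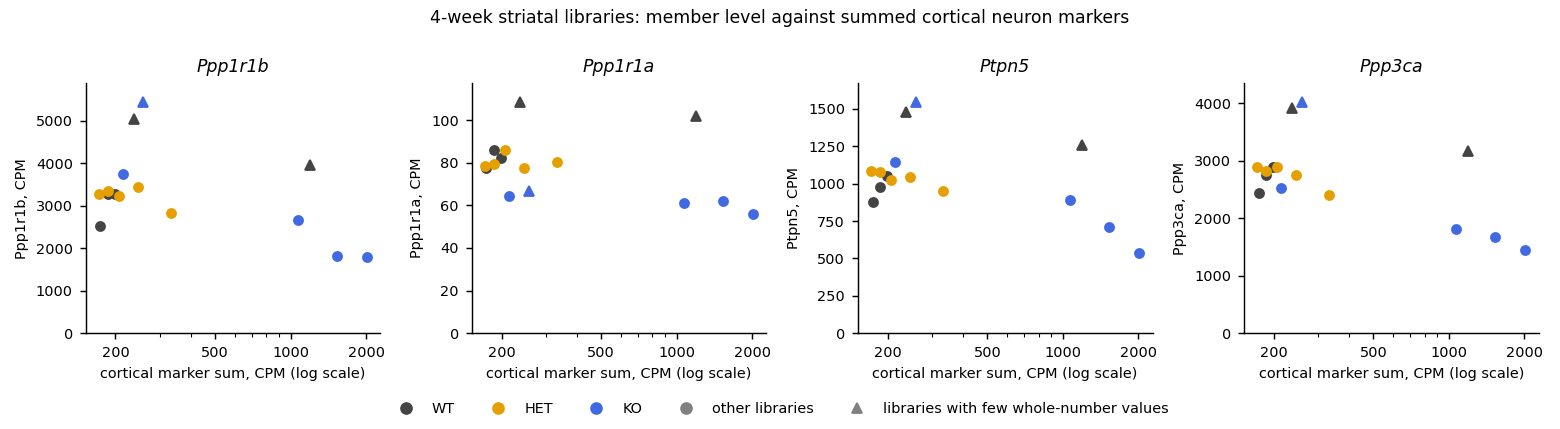
Levels of Ppp1r1b, Ppp1r1a, Ptpn5 and Ppp3ca (CPM) in the 15 striatal libraries at 4 weeks, against the summed level of 8 cortical and hippocampal excitatory neuron markers (CPM, log scale). Each point is a library, colour marks genotype, and triangles mark the libraries with few whole-number counts. The 3 KO libraries at 1066 to 2017 CPM of cortical markers are low for Ppp1r1b, Ptpn5 and Ppp3ca, while all 5 KO libraries are low for Ppp1r1a.

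Ptpn5, STEP, was at 712, 537 and 890 CPM in the 4-week KO libraries 51, 161 and 163 and at 1548 and 1144 CPM in KO 12 and KO 932. The WT libraries ranged from 875 to 1476 CPM. At 12 weeks KO ranged from 1085 to 1305 CPM and WT from 900 to 1543 CPM, with a log2 fold change of -0.05 ± 0.13 (SE, adjusted p = 0.932). Its 95% interval ran from -0.31 to 0.21. Arpp21 at 12 weeks was at 1973 ± 77.6 CPM in KO and 2020 ± 180 CPM in WT (SD, n = 5 each), with a log2 fold change of -0.04 ± 0.08 (SE, adjusted p = 0.897). Arpp19 was at 625 ± 63.9 and 708 ± 138 CPM (SD, n = 5 each), with -0.18 ± 0.12 (SE, adjusted p = 0.505).

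Ppp3ca, the calcineurin catalytic subunit, fell in KO striatum at 12 weeks. The KO libraries 1 to 5 were at 2539, 2210, 2805, 2549 and 2407 CPM, and the WT libraries 1 to 5 at 3013, 3225, 2813, 3566 and 3218 CPM. The groups did not overlap, but the highest KO library, KO 3, and the lowest WT library, WT 3, were close. The log2 fold change was -0.34 ± 0.07 (SE, adjusted p = 0.0123), which left 78.9% of the WT level. The 5 HET libraries ranged from 2754 to 3593 CPM, near WT. The summed striatal projection neuron markers were at 8084 to 9567 CPM in these KO libraries and 7762 to 11263 CPM in WT, and their part in the result was not tested. The call held when any 1 of the 10 libraries was left out.

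Ppp3r1, the calcineurin regulatory subunit, was at 848, 815, 1006, 910 and 854 CPM in 12-week KO 1 to 5 and at 1021, 1064, 968, 1221 and 1070 CPM in WT 1 to 5. Only KO 3 was above the lowest WT library, WT 3. The log2 fold change was -0.27 ± 0.07 (SE, adjusted p = 0.0434), which left 82.8% of the WT level. This call held in 2 of the 10 fits with 1 library left out, and the adjusted p reached 0.119 without STR WT 4. It was also lost without the low-count filter (adjusted p = 0.0550), in a fit of only WT and KO (0.0544) and with the cortical marker score as covariate (0.0563). At 4 weeks Ppp3r1 was at 851, 857 and 862 CPM in KO 51, 161 and 163 and at 1060 and 1655 CPM in KO 932 and KO 12, against 938 to 1467 CPM in WT.

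The PP1 catalytic genes did not pass in KO striatum at 12 weeks. Ppp1ca was at 514 ± 49.6 CPM in KO and 505 ± 63.0 in WT, Ppp1cb at 233 ± 24.4 and 257 ± 24.6, and Ppp1cc at 265 ± 21.2 and 273 ± 22.6 CPM (SD, n = 5 each). Their log2 fold changes were 0.02 ± 0.09, -0.14 ± 0.08 and -0.05 ± 0.06 (SE), with adjusted p of 0.956, 0.443 and 0.805. The groups overlapped for each.

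**Figure D4:**
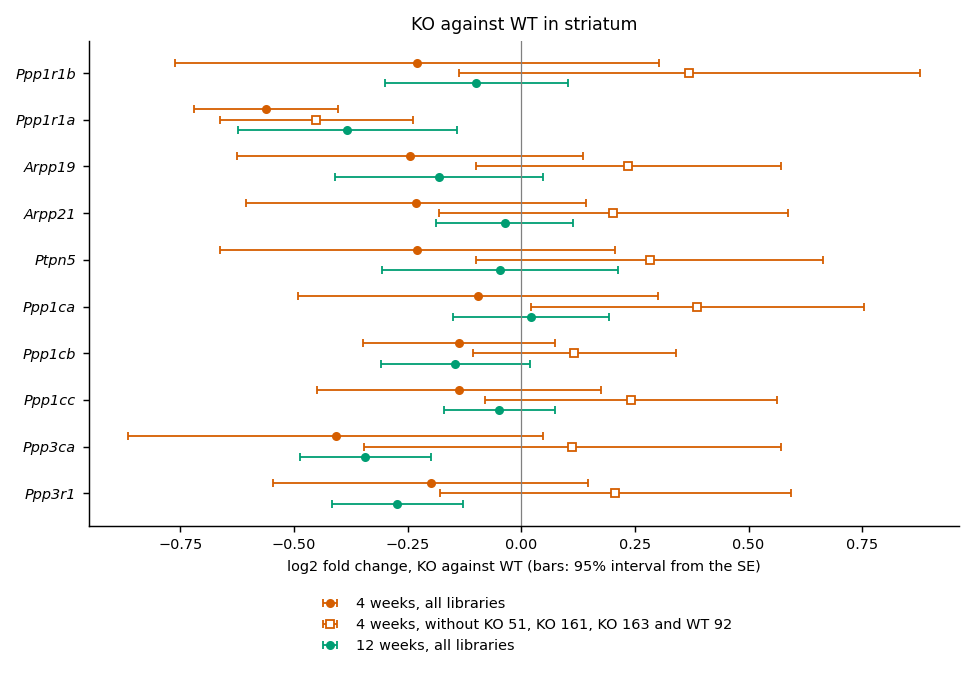
Log2 fold change of KO against WT in striatum for the 10 genes, at 4 weeks with all libraries (filled orange), at 4 weeks without KO 51, KO 161, KO 163 and WT 92 (open orange squares) and at 12 weeks (green), with 95% intervals from the SE. Ppp1r1a is below 0 in all 3, and the other 9 genes are below 0 at 4 weeks with all libraries and above 0 without the 4 libraries.

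In the other 5 regions no gene of the 10 was called in KO by edgeR at either age. Of the 50 tests per age, 6 had an unadjusted p under 0.05 at 4 weeks and 6 at 12 weeks. Their log2 fold changes ran from -0.47 to 0.91 at 4 weeks and from -0.23 to 0.34 at 12 weeks. The highest was in 4-week HP, where the smallest adjusted p of the 10 genes was 0.725. Ppp1r1b was there at 42.9 to 126 CPM in KO and 23.8 to 62.5 CPM in WT, with overlap. These tests thus do not show that levels were unchanged. DESeq2 called 0 at 4 weeks and 1 at 12 weeks, Ppp3ca in TH with a log2 fold change of 0.31 (adjusted p = 0.00454). Few genes of any kind were called there. At 4 weeks the share of all genes called was 0.0125% in PFC, 0.0564% in SSC, 0.00609% in HP, 0.0128% in TH and 0.00617% in SN. At 12 weeks it was 0.0123% in PFC, 0.0252% in SSC, 0.00608% in HP, 0.0064% in TH and 0.0364% in SN.

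The KO effect in striatum was tested directly against its mean over the other 5 regions. At 12 weeks the difference was called for Ppp3ca (-0.42 ± 0.09 SE on the log2 scale, adjusted p = 0.00125) and Ppp3r1 (-0.34 ± 0.09 SE, adjusted p = 0.0187), with 3.11% of all genes called. The Ppp3r1 difference was not called without STR WT 4 (adjusted p = 0.0928), without STR KO 2 (0.0633) or without STR KO 5 (0.0502). The Ppp1r1a difference was -0.26 ± 0.13 (SE, adjusted p = 0.419). At 4 weeks no gene of the 10 was called by edgeR or by DESeq2, 0 had an unadjusted p under 0.05, and 3.52% of all genes were called. There the Ppp1r1a difference was -0.38 ± 0.23 (SE, adjusted p = 0.505), so its 4-week fall in striatum was not shown to differ from the other regions. Without the libraries that stood apart in STR, TH and SN, again 0 of the 10 were called, and the median difference moved from -0.14 to 0.29, with 9 of the 10 genes above 0.

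The KO effect was not shown to differ between ages for any of the 10 genes. Of 60 tests over the 6 regions, edgeR called 0 and DESeq2 called 0, and 4 had an unadjusted p under 0.05. The share of all genes called was 0% in each region.

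In HET, no gene of the 10 was called by edgeR in any region at either age. Ppp1r1a in 4-week striatum, the gene and group called in KO, was at 80.3 ± 3.25 CPM in HET and 91.3 ± 13.4 in WT (SD, n = 5 each), with a log2 fold change of -0.19 ± 0.08 (SE, adjusted p = 1). No HET library of that group belonged to the subset with few whole-number counts, and WT 92 and WT 914 did. In striatum 1 of 10 tests at 4 weeks and 0 of 10 at 12 weeks had an unadjusted p under 0.05. In the other regions it was 5 of 50 and 4 of 50. DESeq2 called 0 in striatum and 2 elsewhere, both higher in TH, Arpp21 at 4 weeks (0.27, adjusted p = 0.0412) and Ppp3ca at 12 weeks (0.29, adjusted p = 0.0249). The share of all genes called at 4 weeks was 0.00648% in STR, 0.00626% in PFC, 0.00627% in SSC, 0.00639% in TH and 0% in HP and SN. At 12 weeks it was 0.0064% in STR and TH, 0.00613% in PFC, 0.00629% in SSC, 0.00608% in HP and 0.00606% in SN. The HET and KO comparisons share the WT libraries.

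Between 4 and 12 weeks, WT libraries showed 5 calls among the 60 tests of gene and region. Age and any difference in how the 2 sets of libraries were made cannot be told apart. In HP, Ppp1r1b rose from 44.3 ± 14.9 CPM (SD, n = 6) to 89.9 ± 14.4 CPM (SD, n = 5), by 1.02 ± 0.27 on the log2 scale (SE, adjusted p = 0.00970). The libraries did not overlap, at 23.8 to 62.5 CPM and 71.4 to 108 CPM. Also in HP, Ppp3ca rose by 0.56 ± 0.16 (SE, adjusted p = 0.0158) and Ppp1r1a by 0.45 ± 0.13 (SE, adjusted p = 0.0183), the latter with overlapping libraries. The Ppp1r1a call was lost in a fit of WT libraries only (adjusted p = 0.0764), without 4-week HP WT 23 (0.0539) and without 12-week HP WT 3 (0.0531). The cortical and hippocampal marker score, a mean log2(CPM + 1), was 6.20 in 4-week HP WT 23 and 5.86 in WT 914. It was 6.72 to 6.84 in the other 4-week and 6.59 to 7.01 in the 12-week WT HP libraries. WT 23 and WT 914 also held the lowest 4-week Ppp1r1a, at 61.0 and 49.4 CPM. The part of this score in the HP rises was not tested. The striatal projection neuron markers summed to 275 to 419 CPM in 4-week and 357 to 538 CPM in 12-week WT HP, and their part in the rise of Ppp1r1b was not tested. In SN, Ppp1r1b rose by 0.64 ± 0.14 (SE, adjusted p = 0.00216), from 17.1 to 30.8 CPM to 35.7 to 42.7 CPM, and by 0.65 (adjusted p = 0.000932) without the SN libraries that stood apart. In SSC, Arpp21 fell by 0.40 ± 0.08 on the log2 scale (SE, adjusted p = 0.000526), from 511 to 674 CPM to 421 to 452 CPM. This call held in the alternative fits, with log2 fold changes of -0.41 to -0.27. Of its 4-week libraries, WT 142 and WT 914 belonged to the subset with few whole-number counts. The share of all genes called was 19.1% in PFC, 27.1% in SSC, 17.7% in HP, 18.5% in STR, 22.6% in TH and 18.6% in SN.

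The age result depended on the libraries with few whole-number counts, all of which were 4-week libraries. Without them 10 tests were called, with that subset as a covariate 11, and without PFC WT 914 alone 8. The added calls without them were Ppp3ca, Arpp19 and Ptpn5 higher in 12-week PFC (0.34, 0.27 and 0.23 on the log2 scale), Ppp3ca higher in SSC (0.40) and Ppp3r1 lower in TH (-0.28). Their adjusted p were 0.00287, 0.0117, 0.0355, 0.000211 and 0.0383. In striatum no gene of the 10 was called between ages by edgeR or DESeq2 with all libraries, and 0 had an unadjusted p under 0.05. Ppp3ca was called higher there with the subset covariate (0.37, adjusted p = 0.0484).

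Other genes of the network were read from 5 lists of 67 genes, of which 66 were tested in striatum. In WT, 36 were called higher and 11 lower in striatum than in the mean of the other regions at 4 weeks, and 38 higher and 20 lower at 12 weeks. The share called over all genes was 52.9% and 67.3%. The 6 largest log2 differences at 12 weeks were those of Adora2a, an adenosine receptor (8.18), Ptpn7, a tyrosine phosphatase related to STEP (7.84), the dopamine receptors Drd2 (6.69) and Drd1 (6.43), the adenylyl cyclase Adcy5 (3.91), and Akap5, an anchoring protein that binds PKA and calcineurin (3.70). Their adjusted p were 1.12e-23, 6.45e-24, 3.48e-26, 4.99e-25, 3.17e-28 and 2.43e-24. Of the 16 genes of PP2A and the endosulfine arm, 7 were higher and 9 lower at 12 weeks.

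In KO striatum 2 of the 66 genes were called higher and 1 lower at each age, and the median log2 fold change of the 66 was -0.010 at 4 weeks and -0.020 at 12 weeks. These 3 of 66 are close to the 3.35% and 4.42% called over all genes, so the counts show nothing particular to the lists, and the values below are those of single genes. Ppp2r5b, a regulatory B56 subunit of PP2A, was higher at both ages. It was at 162 to 193 CPM in KO and 116 to 160 CPM in WT at 4 weeks, without overlap, and the log2 fold change was 0.41 ± 0.09 (SE, adjusted p = 0.0243). At 12 weeks it was at 136 to 182 CPM in KO and 116 to 134 CPM in WT, with 0.36 ± 0.07 (SE, adjusted p = 0.00386). The 4-week call was lost without the 4 libraries that stood apart (0.45, adjusted p = 0.0502) and in 5 of 10 fits with 1 library left out, those without KO 51, KO 161, WT 42, WT 142 or WT 913 (adjusted p of 0.0550 to 0.0717).

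Ppp1r7, a regulatory subunit of PP1, was higher in 12-week KO striatum at 358 to 376 CPM, against 296 to 318 CPM in WT, with 0.26 ± 0.05 (SE, adjusted p = 0.00448). Nfatc2, a transcription factor that calcineurin activates, was lower at 20.9 to 24.1 CPM, against 26.3 to 46.1 CPM in WT, with -0.64 ± 0.12 (SE, adjusted p = 0.00488). Neither pair of groups overlapped. Without the 4 libraries that stood apart, Ppp1r7 was also called higher at 4 weeks (0.45, adjusted p = 0.0238). At 4 weeks Ppp1r14c, an inhibitor of PP1, was higher at 8.07 to 15.6 CPM, against 5.93 to 7.48 CPM in WT (0.72 ± 0.15 SE, adjusted p = 0.0131). Akap5 was lower at 273 to 455 CPM, against 476 to 579 CPM (-0.55 ± 0.12 SE, adjusted p = 0.0182). Without the 4 libraries that stood apart both were not called, at 0.47 (adjusted p = 0.122) for Ppp1r14c and -0.30 (adjusted p = 0.238) for Akap5, which was also not called without WT 914 (adjusted p = 0.0574). In a fit of only WT and KO the 4-week calls of Ppp2r5b, Ppp1r14c and Akap5 were lost, with adjusted p of 0.116, 0.0582 and 0.103.

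Split by list, where counts this small are again near the 3.35% and 4.42% of all genes, the 14 PP1 partners had 1 gene higher at each age, Ppp1r14c and then Ppp1r7. The 11 tested genes of calcineurin and its regulators had 1 lower at each age, Akap5 and then Nfatc2. The 16 genes of PP2A and the endosulfine arm had 1 higher, Ppp2r5b. EdgeR called 0 of the 8 STEP relatives and substrates and 0 of the 17 kinases and dopamine-cAMP inputs, which hold Drd1, Adcy5 and the PKA subunits. At an unadjusted p under 0.05 the STEP list had 0 at 4 weeks and 4 at 12 weeks, and the kinase list 2 and 3. DESeq2 called Prkar2a at 4 weeks and Ptprr at 12 weeks in these lists. Outside striatum, edgeR called 0 of 326 tests of list genes in KO at 4 weeks and 1 of 327 at 12 weeks, Prkar1a, a regulatory subunit of PKA, in SSC (-0.25 ± 0.04 SE, adjusted p = 0.0398). Of these, 37 and 20 had an unadjusted p under 0.05, and DESeq2 called 4 and 3. In the direct test of striatum against the other regions, Ppp1r2, Ppp1r7 and Ppp2r5b were called more positive and Nfatc2 more negative at 12 weeks, with adjusted p of 0.00262, 0.000798, 0.00194 and 0.00893. At 4 weeks Ppp1r14c (0.83, adjusted p = 3.85e-05), Ppp2r5b (0.45, adjusted p = 0.0215) and Prkar2a, a regulatory subunit of PKA (0.46, adjusted p = 0.0468), were called more positive. Without the libraries that stood apart, Ppp1r14c (0.57, adjusted p = 0.0366) and Ppp2r5b (0.50, adjusted p = 0.0472) were still called and Prkar2a was not (0.15, adjusted p = 0.477). The share of all genes called in this test was 3.52% at 4 weeks and 3.11% at 12 weeks.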

How the data were processed

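Tissue was dissected from frozen brain, RNA was isolated with RNeasy columns, and libraries were made with a stranded TruSeq mRNA kit, per the labels' protocols. The authors deposited expected counts, which are estimated and often not whole, in 1 table of all genes. The submitters' processing notes name Salmon and mm10, while the sources used here do not give the version, annotation or use of strand. Of the values above 0, 77.9% were not whole. How reads shared by similar genes, such as the 3 PP1 catalytic genes, or by overlapping genes were assigned is uncertain. Totals per library were 20.8 to 73.3 M (mean 46.1 ± 9.60 M, SD, n = 186), and 0 columns were left without a sample. No libraries were merged, since the chi-square over degrees of freedom was at least 7.97 in each of 390 replicate pairs.

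Expected counts were rounded and tested with edgeR 4.0.16 in R 4.3.3 (TMM, filterByExpr, glmQLFit, glmQLFTest), with Benjamini-Hochberg adjustment over all genes tested in each comparison. Fits held the 3 genotypes of 1 region and age, the WT libraries of all regions at 1 age, all libraries of 1 region over both ages, or all regions at 1 age. SE is the log2 fold change divided by the square root of F, and 95% intervals are 1.96 SE either side. Printed CPM are TMM-scaled over all 186 libraries, so they differ slightly from the scale of each fit. The fits were tested on simulated data with known changes. For KO against WT in striatum, 45% of 1.5-fold changes were recovered at 4 weeks and 62% at 12 weeks. Recovery of 2-fold changes was 78% and 85%. Smaller changes can thus go uncalled. The alternatives were relative log expression factors, no filter, DESeq2 1.42.0, 2 genotypes only, 1 surrogate variable (sva 3.50.0), a replicate block (limma 3.58.1 across regions), covariates, and leaving out libraries, of which those on the 16 libraries with few whole-number counts were partly added after seeing the data.

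Positions are from GENCODE M21 on GRCm38, 1-based, matched by symbol. The 10 genes, the lists and the tests were chosen with earlier results of these data known. Of other genes, those named are the list genes called in KO striatum (at most 4 per list and age), the 5 genes of most similar pattern, and Akap11. Markers are named where a result moves with them. Adora2a, Ptpn7, Drd2, Drd1, Adcy5, Ppp1r2, Prkar1a, Prkar2a and Ptprr were named after their values were seen.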

Additional observations from a re-analysis of the deposited data

Results flagged for a closer look

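Of the 360 sets of 1 gene in 1 group of region, age and genotype, 39 held a library that lay apart from the rest, meaning that its gap to the nearest library took more of the range than Dixon's critical value allows. Chance flags about 1 in 20 such sets. Libraries of 1 group share their tissue across genes, so several flags can come from 1 library.

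In 4-week SN, WT 92, whose label is in doubt, was the highest WT library for Ppp1ca (382 CPM, others 113 to 148) and Ppp1r1a (37.4 CPM, others 12.6 to 21.5). Arpp21 was highest in WT 42 (98.3 CPM, others 41.6 to 62.2), in HET 93 (53.4 CPM, others 38.4 to 43.1) and in KO 91 (96.3 CPM, others 42.8 to 54.5) of that region. KO 91 was also highest for Ppp3ca (368 CPM, others 175 to 219) and Ppp3r1 (422 CPM, others 212 to 266). The thalamic neuron markers summed to 3063 CPM in WT 42 and 2016 CPM in KO 91, and to at most 873 CPM in the other SN libraries of that age. Their part in these levels was not tested.

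In 4-week TH, WT 913 was highest for Ppp1r1a (50.5 CPM, others 12.7 to 19.1), Ppp3ca (1038 CPM, others 382 to 479) and Ppp3r1 (654 CPM, others 380 to 456). Its thalamic neuron markers summed to 2676 CPM and its cortical markers to 1419 CPM, the lowest and the highest of the 6 WT libraries. WT 142 was highest there for Ppp1ca (165 CPM, others 145 to 151).

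In 4-week HP, HET 941 was highest for Arpp19 (206 CPM, others 65.0 to 78.7), Arpp21 (334 CPM, others 112 to 144) and Ppp1ca (168 CPM, others 145 to 149). Its cortical and hippocampal marker score was 7.27, against 6.64 to 6.81 in the other HET libraries. Its summed striatal projection neuron markers, at 332 CPM, were the lowest of the 5 HET libraries. The part of these markers in its levels was not tested. WT 914 was lowest there for Ppp1cc (160 CPM, others 183 to 196). In 12-week HP, KO 2 was lowest for Ppp1r1a (79.4 CPM, others 99.9 to 107) and HET 5 for Ppp1cc (179 CPM, others 202 to 208).

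In 4-week PFC, WT 914 and HET 941, both of the subset with few whole-number counts, were flagged for several genes. WT 914 was highest for Arpp21 (601 CPM, others 407 to 454), Ppp1ca (248 CPM, others 162 to 185) and Ppp3ca (1282 CPM, others 719 to 796). HET 941 was highest for Arpp19 (328 CPM, others 217 to 258), Ppp1ca (225 CPM, others 154 to 174) and Ppp3r1 (1197 CPM, others 731 to 820). KO 44 was highest for Ppp1r1b (50.4 CPM, others 25.6 to 29.1) and Ppp1ca (172 CPM, others 154 to 159), and KO 12 lowest for Arpp19 (227 CPM, others 237 to 240). In 12-week PFC, KO 2 was highest for Ppp1r1b (63.5 CPM, others 32.9 to 38.0) and lowest for Arpp21 (389 CPM, others 468 to 490). WT 3 was highest for Arpp21 (449 CPM, others 395 to 409) and HET 5 for Ppp3r1 (801 CPM, others 673 to 709).

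In 12-week SSC, HET 5 held 329 CPM of Ppp1r1b (others 129 to 168), and its striatal projection neuron markers summed to 856 CPM, against 370 to 430 CPM in the other HET libraries. WT 2 was lowest there for Ppp1r1a (57.3 CPM, others 69.4 to 73.2) and HET 4 highest for Ppp3r1 (1022 CPM, others 904 to 935). In 4-week SSC, HET 93 and HET 162 held 509 and 343 CPM of Ppp1r1b (other HET libraries 128 to 148), and neither was flagged. Their Drd1 was at 51.9 and 29.5 CPM (others 5.48 to 8.17), and the part of striatal tissue in these levels was not tested. In 12-week SN, WT 1 was highest for Ppp1r1b (42.7 CPM, others 35.7 to 36.7) and HET 5 lowest for Ppp1ca (112 CPM, others 126 to 132).

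In 4-week striatum, HET 931 was the lowest HET library for Ppp1cb (252 CPM, others 287 to 300), Ppp3ca (2400 CPM, others 2756 to 2888) and Ppp3r1 (980 CPM, others 1126 to 1162). Its cortical marker sum was the highest of the 5 HET libraries, at 332 CPM. KO 12 was the highest KO library for Ppp3r1 (1655 CPM, others 851 to 1060).

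Among effects that differed between groups, the KO effect at 12 weeks was lower in striatum than in the mean of the other 5 regions for Ppp3ca (-0.42 on the log2 scale, adjusted p = 0.00125) and Ppp3r1 (-0.34, adjusted p = 0.0187), by edgeR.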

How the results depend on the processing

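Of the recomputed counts of genes called, 590 stayed within 1.5 times their value and 22 did not. Settings named here as added were chosen after seeing the data. In KO striatum at 4 weeks 1 gene was called, 2 without the library subset (added), and 1 to 3 with 1 library left out. At 12 weeks 2 were called, and 1, Ppp3r1 being lost, without the low-count filter, in the fit of only the 2 genotypes compared and with the cortical score as covariate, or 1 to 2 with 1 library left out. DESeq2 called 1 gene in the other 5 regions for HET at 4 weeks, KO at 12 weeks and HET at 12 weeks, where edgeR called 0. Between ages the count of 5 became 11 with the subset covariate, 10 without the subset (added), and 4 to 8 with 1 library left out. The difference of the KO effect between striatum and the other regions gave 1 to 2 calls at 12 weeks with 1 library left out.

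In KO striatum 26 values of single genes turned sign, all of genes not called at that age with all libraries. At 4 weeks, without the 4 libraries that stood apart, Ppp1r1b was at 0.37, Arpp19 0.24, Arpp21 0.20, Ptpn5 0.28, Ppp1ca 0.39, Ppp1cb 0.12, Ppp1cc 0.24, Ppp3ca 0.11 and Ppp3r1 0.21. With the cortical score and subset covariates (added), Ppp1r1b was at 0.075, Ptpn5 0.031, Ppp1ca 0.16 and Ppp1cc 0.061. Ppp1ca was at 0.050 with 1 surrogate variable, 0.010 with the subset covariate and 0.014 with the cortical score, 0.010 without KO 161, 0.016 without KO 51 and 0.023 without WT 914, with leave-one-out values from -0.32 to 0.023. At 12 weeks Arpp21 was at 0.010 without WT 2, and ranged from -0.068 to 0.010 with 1 library left out. Ptpn5 was at 0.00090 with 1 surrogate variable, 0.012 without WT 1 and 0.059 without WT 2 (range -0.13 to 0.059). Ppp1ca was at -0.0013 with the cortical score, -0.017 without KO 4 and -0.044 without WT 3 (range -0.044 to 0.063). The causes were not tested.

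The labels do not say whether the replicate numbers shared by the genotypes at 12 weeks pair the libraries. In no region did all 5 pairs of same-numbered KO and WT libraries have deviations correlated over 0.1. In striatum 3 of 5 did (median 0.161, lowest -0.264), and 3 of 5 libraries correlated best with their own number. The median was above 0 in each region, from 0.027 in SN to 0.25 in PFC, so a partial pairing was not excluded. With the replicate block, 3 genes were called in KO striatum at 12 weeks, Ppp1r1a being added at -0.40 (adjusted p = 0.0108). The block changed no other call of the 10 genes.

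The lowest expected count of any of these genes in any library was 299. The part of depth in their levels and calls was not tested.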
